A study of Danio rerio with 10 samples.

Results

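The cytosolic ribosomal proteins are described here in injured hearts and fins of zebrafish that lack the receptor for Interleukin-11 and of their wild-type siblings. The paper reports that the wild types regenerate, while the mutants fail to regrow the fin and keep a scar in the heart. Members are the genes whose symbol in the deposited tables starts with *rpl* or *rps* and a number, or is *rplp0*, *rplp1*, *rplp2*, *rplp2l* or *rpsa*, with the ribosomal S6 kinases left out. The rule found 83 of the 22202 genes of the fin table and the same 83 of the 23511 genes of the ventricle table, 47 of the large subunit and 36 of the small subunit. They lie on 25 chromosomes, and 77 of them carry the pathway label Ribosome in the tables. Both tables list 82 of them as protein coding, and *rps20* as a processed transcript. The members *rpl7l1* and *rps19bp1*, code for proteins of ribosome assembly and not for subunits, and they were kept and are named where they differ.

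Proteins encoded in the nucleus are made on cytosolic ribosomes, each a large and a small subunit of RNA and protein. The large subunit joins the amino acids and carries the stalk (Rplp0, Rplp1 and Rplp2) that calls in the elongation factors, while the small subunit reads the mRNA. In vertebrates the mRNAs of these proteins start with a run of pyrimidines, the 5′ terminal oligopyrimidine (TOP) motif, through which mTORC1 and Larp1 set how much of them is translated, and tissue growth such as regeneration is known to require new ribosomes.

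Polyadenylated RNA was sequenced from adult Tüb/AB zebrafish that carried the CRISPR-Cas9 allele *il11ra* bns251 (*il11ra* mutants) and from their wild-type siblings. Whole ventricles were taken at 96 hours post cryoinjury (hpci), with 2 libraries per genotype and 2 animals pooled in each. Caudal fin tissue next to the amputation plane was taken at 24 hours post amputation (hpa), with 3 libraries per genotype and 1 animal in each. All 10 libraries come from injured animals, so they compare genotypes after injury and hold no uninjured level. The values are normalized counts, which are read counts divided by a factor for each library and rounded to whole numbers. The 2 tissues were scaled in separate tables, and levels are therefore set side by side and not tested across them.

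Transcripts of *il11ra* were listed at 65, 80 and 57 in wild-type fins and at 3, 6 and 7 in mutant fins, and at 107 and 189 in wild-type ventricles and 38 and 23 in mutant ventricles, in the direction of the labels in both tissues. Each fin library held an estimated 2963659 to 4699029 reads on genes, and each ventricle library 12862399 to 14292521. Libraries were not alike in the summed levels of cell type marker genes. In mutant ventricle replicate 1 the summed level of 10 cardiomyocyte genes was 481302, against 783384 to 905253 in wild-type ventricles and 853101 in mutant replicate 2. Some other marker lists did not overlap between ventricle genotypes. In wild types against mutants, 9 genes of the fin fibroblast and blastema list summed to 43626 to 54264 and 11566 to 22588. The 6 endothelial genes summed to 18170 to 22152 and 14941 to 15391. Likewise 12 genes of the epidermal list summed to 60933 to 71372 and 46249 to 47593. The 7 erythrocyte gene rows, higher in mutants, summed to 73393 to 77673 and 86850 to 99112. The epidermal list and the fin fibroblast and blastema list name cell types of the fin. Their ventricle sums are therefore not read as cells of those types. In fins, 8 leukocyte gene rows summed to 1748 to 2327 in wild types and to 3952 to 4618 in mutants. The sums of 7 lymphocyte genes were 225 to 254 and 619 to 865, and those of the fibroblast and blastema genes 10276 to 11747 and 6531 to 7041. The fibroblast and blastema genes did not move as 1 in fins, where 8 were tested, 3 called lower and 2 higher. Only 4 of them were tested in ventricles, all fitted lower (log2 fold change -1.61 to -0.46, median -0.49), and 2 of these without overlap. The ventricle sum is weighted to its most abundant genes and is not a like change in all 9. The list also holds *fn1b*, which the paper reports as reduced in injured mutant hearts and fins. Likewise 7 osteoblast genes summed to 1496 to 1709 in wild-type fins and 1041 to 1374 in mutant fins. The sums of 6 endothelial genes were 981 to 1043 and 1097 to 1370. Of the 10 cardiomyocyte markers, 4 are in the fin table, at low sums of 70 to 85 in wild-type fins and 8 to 21 in mutant fins. No marker was at 0 in every library of a tissue that lists it. The part of these differences in the results that follow was not tested, and in bulk tissue fewer cells of a type cannot be told apart from less RNA per cell.

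In ventricles, nearly all ribosomal protein genes had a lower fitted level in mutants, about 0.804-fold at the median, but no single member passed the test. The summed level of the 83 genes was 544183 and 571444 normalized counts in wild types, against 470493 and 421398 in mutants. The genotypes did not overlap, and wild-type replicate 2 was the highest and mutant replicate 2 the lowest. This held for both subunits, with the large subunit at 320167 and 337020 in wild types and 278471 and 249866 in mutants, and the small subunit at 224016 and 234424 against 192022 and 171532.

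**Figure D1:**
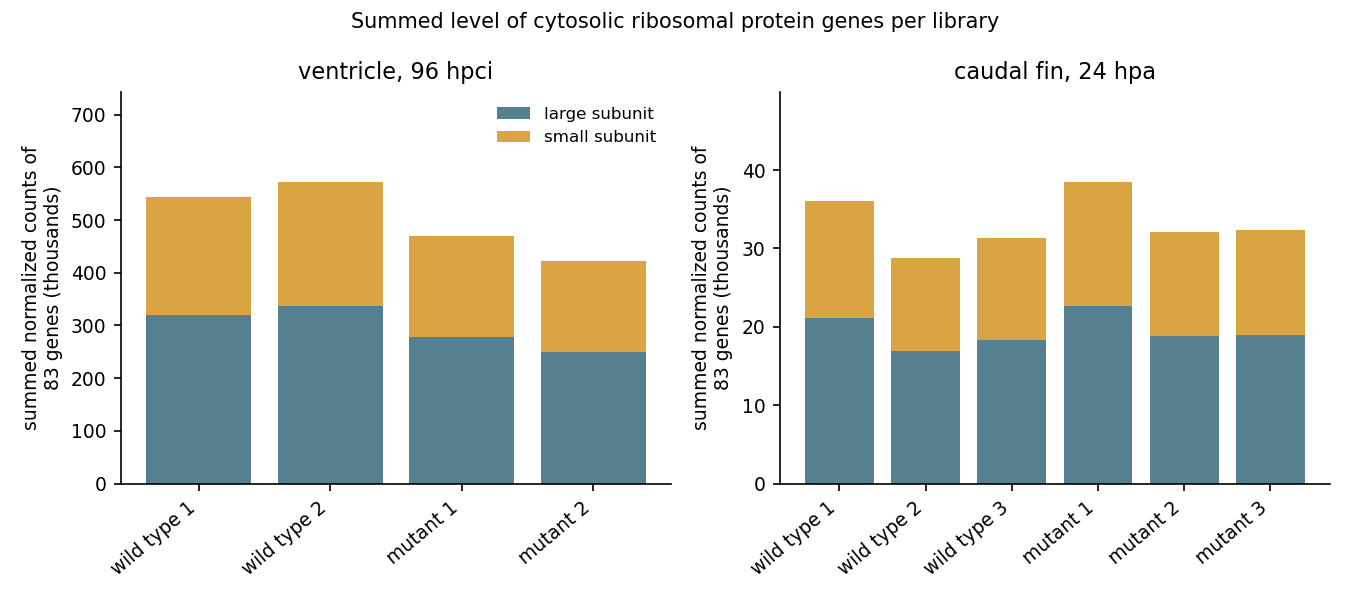
Summed normalized counts (in units of 1000) of the 83 cytosolic ribosomal protein genes in each library, stacked by subunit, in ventricles at 96 hpci (left) and caudal fins at 24 hpa (right), with a separate axis for each table. Both mutant ventricle bars (470493 and 421398) stand below both wild-type bars (544183 and 571444), while the fin bars of the genotypes overlap.

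Member by member, the fitted change in ventricles was below 0 in 81 of 83 genes, where 48.6% of all 17411 tested genes were below 0 and 51.4% above. The median log2 fold change was -0.31 (0.804-fold), against 0.01 over all tested genes, with -0.31 for the large subunit (47 of 47 below 0) and -0.33 for the small subunit (34 of 36 below 0). In 74 of 83 members both mutant libraries were below both wild-type libraries, which was so for 17.1% of all tested genes. No member had both mutant libraries above, against 18.2% of all tested genes. The members moved together by library, with wild-type replicate 2 the highest for 70 of them and mutant replicate 2 the lowest for 76. The counts of members here and by level below therefore rest on 2 libraries per genotype and are not separate observations. None of the 83 members passed an adjusted p of 0.05 in limma in either direction, and nor did any other gene (0.0% of 17411 called). At an unadjusted p under 0.05 there were 4 members, *rpl29*, *rpl5a*, *rplp2* and *rps28*, with 6.74% of all tested genes. Standard errors of the members ran from 0.18 to 0.30 on the log2 scale, against a median change of -0.31.

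The shift depended on how libraries were scaled. The ribosomal protein sum was also taken as a share of all normalized counts of its library. It was 4.10% and 4.67% in wild-type ventricles and 4.29% and 3.19% in mutants, so mutant replicate 1 lay between the wild types. Without mitochondrial genes this library again lay between them (4.75% against 4.65% and 5.19%). Without the 10 largest other genes it was at 4.971%, just below both wild types (4.979% and 5.493%). The summed total of mutant replicate 1, 10968602 normalized counts, was the lowest of the 4 libraries, the others being 12229373 to 13273996. Scaled to the library sum over all genes, 20 members were lower without overlap (12.8% of all tested genes) and 1 was higher. Scaled to the sum without mitochondrial and ribosomal protein genes, the count was 28 (13.2% of all tested genes) and the median was -0.24. Scaled to the median ratio without the members or to the upper quartile, it was 74 each time (18.9% and 17.7% of all tested genes). Without mutant replicate 1, the library low in cardiomyocyte genes, 79 members were lower without overlap (33.2% of all tested genes) with a median of -0.41, and without mutant replicate 2 the values were 77 (37.1%) and -0.23.

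At means of 1000 or more, other genes of like level moved less. Among other genes with a mean of 1000 to 10000, where 65 members lie, the median log2 fold change was -0.05 and 259 of 1439 were lower without overlap, against -0.33 and 62 of 65 members. Among other genes of at least 10000, which number 132, 100 were fitted below 0 with a median of -0.17 and 25 were lower without overlap, against -0.31 and 11 of 11 members. Of the 7 members at a mean of 100 to 1000, 1 was lower without overlap, near the share of other genes at that level (1357 of 8242).

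In the large subunit, the gene with the largest fitted fall was *rpl29*, which codes for a small protein of the subunit's surface (chr11:1396170-1400634 in GRCz11, minus strand). Its level was 3386 and 3654 in wild types and 2365 and 2326 in mutants (log2 fold change -0.58, SE 0.18, adjusted p = 0.618, limma). Both mutant libraries were close to each other and well below both wild types. *rpl5a*, whose product carries the 5S RNA into the large subunit (chr2:10687276-10703621, minus strand), was at 6540 and 6740 in wild types and 4468 and 4602 in mutants (-0.55, adjusted p = 0.695). Its second copy *rpl5b* was at 8308 and 8640 in wild types and 6376 and 5957 in mutants (-0.46, adjusted p = 0.761).

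The stalk genes were below wild type in each mutant library except for one copy. The base of the stalk, *rplp0*, one of the most abundant members, was at 22198 and 23536 in wild types and 19495 and 17669 in mutants (-0.30). The tip protein genes *rplp1* and *rplp2* were at 11885 and 13578 against 10984 and 9520 (-0.31) and at 4860 and 4763 against 3064 and 3526 (-0.55). The copy *rplp2l* overlapped, with 3218 and 3717 in wild types and 3335 and 2319 in mutants (-0.31). Their adjusted p-values ran from 0.694 for *rplp2* to 0.884 for *rplp0*.

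In the small subunit, *rps28*, a small protein near the mRNA exit, was at 4053 and 4199 in wild types and 3058 and 2843 in mutants (-0.48, adjusted p = 0.711). The most abundant member in ventricles, *rps2*, which lines the mRNA entry, was at 24613 and 25004 in wild types and 18555 and 18244 in mutants (-0.43), and *rpsa*, the laminin receptor protein of the small subunit, was at 18492 and 19644 against 16118 and 14761 (-0.31).

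Only *rps27l* and *rps8b* had a fitted change above 0 in ventricles. Both are the lesser copies of a more abundant gene. *rps27l*, a p53 target gene in mammals (chr25:34641536-34650374, plus strand), was at 379 and 446 in wild types and 648 and 418 in mutants (0.34, SE 0.26, adjusted p = 0.870). The genotypes overlapped, and the value rested on mutant replicate 1, without which it was 0.02. For *rps8b* (chr8:18193116-18200003, minus strand) the levels were 189 and 203 in wild types and 187 and 303 in mutants (0.28, adjusted p = 0.895), a value that rested on mutant replicate 2. Without that library it was -0.07.

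**Figure D2:**
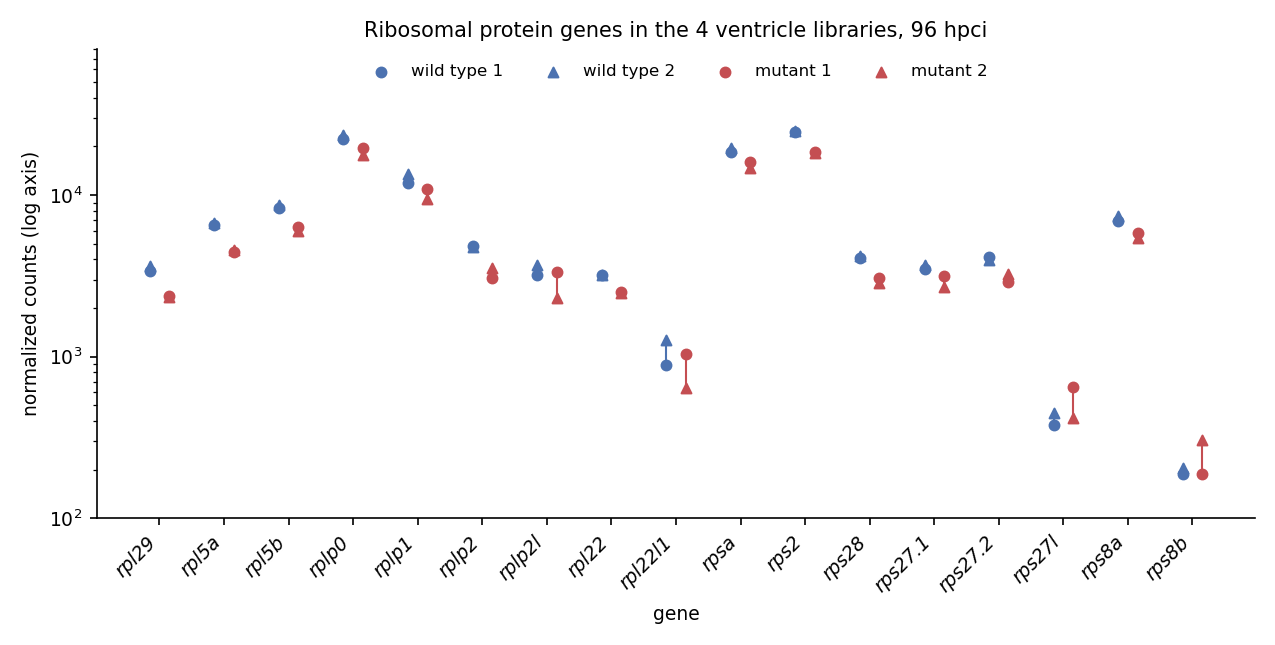
Normalized counts (log axis) of 17 ribosomal protein genes in the 4 ventricle libraries at 96 hpci, each point 1 library and each line joining the 2 libraries of a genotype. Both mutant points lie below both wild-type points for every gene shown except *rplp2l*, *rpl22l1*, *rps27l* and *rps8b*, where the genotypes overlap.

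Zebrafish kept second copies of several subunits, so the share of each copy within its pair could be read in each library without regard to scaling. The share of *rps27l* in the sum of *rps27.1*, *rps27.2* and *rps27l* was 4.73% and 5.52% in wild-type ventricles and 9.73% and 6.57% in mutants, and that of *rps8b* in its pair was 2.67% and 2.66% against 3.12% and 5.31%. That of *rpl5a* was 44.0% and 43.8% in wild types and 41.2% and 43.6% in mutants. These 3 shares did not overlap between genotypes, with 2 libraries on each side and no test. With so few libraries this is common, since 18.2% of all tested genes were higher and 17.1% lower without overlap in mutant ventricles. No difference in the use of copies is therefore drawn from these shares. For *rpl22* and *rpl22l1*, *rplp2* and *rplp2l*, *rps26* and *rps26l*, and the pair of *rpl37* rows (on chromosomes 21 and 2), shares overlapped in ventricles. In fins the shares of all 7 sets overlapped, with *rps27l* at 19.6% to 20.4% in wild types and 20.05% to 24.10% in mutants. Reads that copies share could be split between them in counting, so these shares are uncertain.

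The other genes with a role in making or using ribosomes were read in the same ventricles. None of them passed the test in limma. The 98 tested ribosome biogenesis factors had a median log2 fold change of -0.07 (2 at an unadjusted p under 0.05), and the 74 proteins of the mitochondrial ribosome, which is built apart from the cytosolic one, had 0.03 (0 at that p). The 44 translation factors and other TOP mRNAs had -0.21 (1 at that p), and 23 of them were lower without overlap, where 17.1% of all tested genes were. Among these was *eef1a1l1*, the main elongation factor that brings tRNAs to the ribosome, at 151434 and 125351 in wild types and 95284 and 106153 in mutants. Of the 4 tested subunit genes whose symbols fall outside the rule, 3 were lower without overlap (17.1% of all tested genes) and 1 higher (18.2%). The lower ones included *rack1* and *faua* (-0.22 and -0.25), with a lowest value of -0.28 among the 4, and the higher one was *faub* (0.41). The 33 genes of mTORC1 and Myc growth control had a median of 0.00 (5 at that p) and the 15 p53 and nucleolar stress rows 0.19 (2 at that p).

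In fins at 24 hpa, the ribosomal protein genes were close to wild-type level in mutants on the deposited scale, whose limits are given below. The summed level was 36074, 28732 and 31278 in wild-type fins and 38431, 32095 and 32387 in mutant fins. The genotypes overlapped, since wild-type replicate 1 lay above mutant replicates 2 and 3. As a share of all normalized counts it was 0.762% to 0.925% in wild types and 0.840% to 0.964% in mutants. The fin table lists 0 genes of the mitochondrial chromosome. The ventricle table lists 29, which held 9.67% to 12.6% of its counts. Shares in the 2 tissues are therefore over unlike sets of genes. None of the 83 members passed the adjusted threshold (smallest adjusted p = 0.0649, limma), in a tissue in which 36.6% of 16741 tested genes did, 19.6% higher and 17.0% lower. At an unadjusted p under 0.05 there was 1 member, *rpl7l1*, against 47.9% of all tested genes. The median log2 fold change was 0.10 (1.08-fold), with 0.10 for the large subunit and 0.11 for the small subunit, against -0.01 over all tested genes. Fitted values were above 0 in 76 members and below 0 in 7, where 48.9% of all tested genes were above 0 and 51.1% below. The members moved together by library, so these counts rest on 3 libraries per genotype and are not separate observations. Without wild-type replicate 2 they were 56 and 27 (median 0.03), and without mutant replicate 1 they were 53 and 30 (median 0.02). Leaving out any other library left 75 to 77 above 0, and medians over all omissions ran from 0.02 to 0.20. With upper-quartile scaling the counts were 68 and 15 (median 0.06).

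In fins, 2 members were higher in every mutant fin than in every wild-type fin, where 26.0% of all tested genes were, and 1 was lower, where 26.8% were. *rplp2* was at 224, 192 and 215 in wild-type fins and 264, 230 and 229 in mutant fins (0.20, SE 0.11, adjusted p = 0.188), and *rps8b* at 40, 36 and 40 against 50, 42 and 56 (0.34, SE 0.21, adjusted p = 0.230). The lower one was *rpl7l1*, the assembly protein gene (chr20:36675083-36679233, minus strand), at 325, 294 and 252 in wild types and 239, 221 and 239 in mutants (-0.31, SE 0.11, adjusted p = 0.0649). It passed the threshold without wild-type replicate 3 (adjusted p = 0.0371), with upper-quartile scaling (0.0370) and with library-sum scaling (0.0440). The other assembly gene, *rps19bp1*, overlapped at 199, 180 and 187 against 188, 162 and 174 (-0.11).

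Ribosomal protein levels in fins also went with a technical property of the libraries, whose part in the small fitted rise was not tested. The worth of 1 read, that is the number of normalized counts a single read stands for, was 1.13, 0.802 and 0.885 in wild-type fins and 1.35, 0.928 and 0.966 in mutant fins. Ordered by this worth, the 6 libraries were also in the order of their ribosomal protein sums. Mutant replicate 1 was the highest library for 67 members and wild-type replicate 2 the lowest for 77. The slope of the log2 level on the log2 worth within genotypes had a median of 0.57 over members and was above 0 in 82 of 83, against -0.03 and 47.8% over the other genes. Among other genes the slope differed by level, from a median of -0.28 at a mean of 10 to 50 to 0.33 at a mean of 1000 or more. With this worth as a covariate, chosen after seeing the data, the median of members was -0.01, with 36 members fitted above 0 and 0 called. Without the 2 libraries of highest worth, replicate 1 of each genotype, the median was 0.11, with 78 members above 0, 5 below and 0 called. Leaving out wild-type replicate 1 put 55 members higher without overlap (30.5% of all tested genes), and leaving out mutant replicate 1 left 2 higher and 4 lower.

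**Figure D3:**
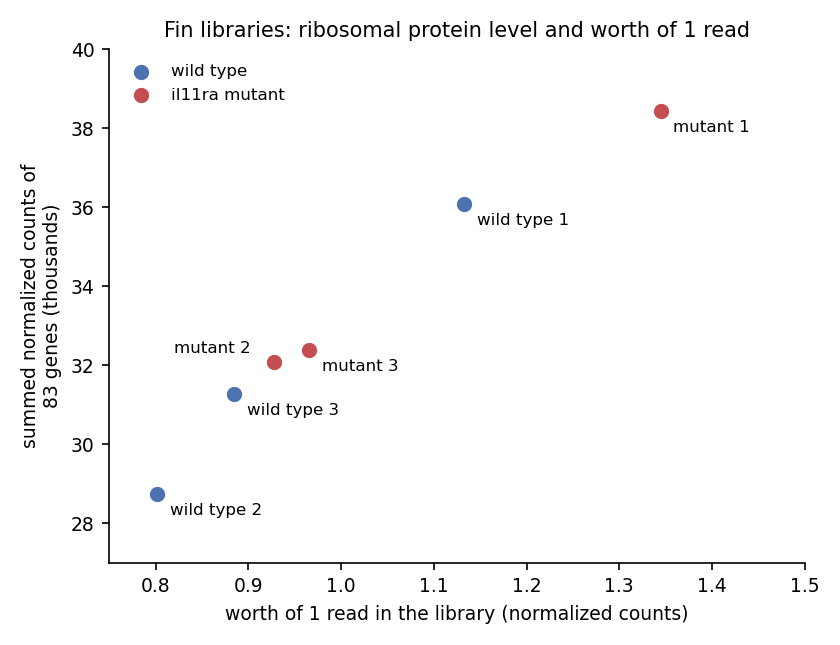
Summed normalized counts (in units of 1000) of the 83 genes in each fin library against the worth of 1 read in that library, in normalized counts; each point is 1 library. The points rise together from wild-type replicate 2 (worth 0.802, sum 28732) to mutant replicate 1 (worth 1.35, sum 38431) in both genotypes, and both axes start above 0.

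The scale of the fin table also limits how the level of these genes can be read. The largest value of any gene was 6719 in fin libraries and 600938 in ventricle libraries, though library medians were alike at 71 to 79 and 61 to 64. Wild-type means of members ran from 38.7 for *rps8b* to 968.7 for *rpl3* in fins, a 25.1-fold range with 0 members at 1000 or more, and from 150.5 for the *rpl37* row on chromosome 2 to 24808.5 for *rps2* in ventricles, a 165-fold range with 77 members at 1000 or more. The gene *eef1a1l1* was at 1134 to 1684 in fins and at 95284 to 151434 in ventricles. Over the 83 members, the log2 fin level rose by 0.45 for each unit of log2 ventricle level (Pearson r = 0.85 across genes, which are not independent replicates and share their libraries). The cause was not tested. Fold changes in fins are therefore given on the deposited scale, and how they relate to the change in mRNA was not tested.

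**Figure D4:**
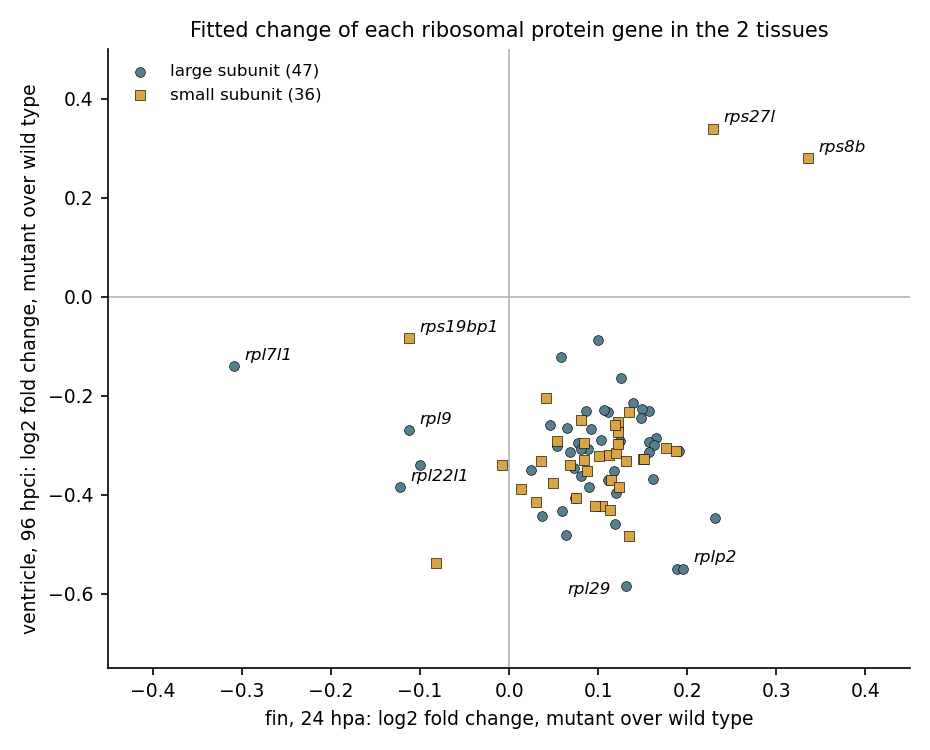
Fitted log2 fold change (mutant over wild type) of each of the 83 genes in fins at 24 hpa (horizontal) and ventricles at 96 hpci (vertical); circles are large and squares small subunit genes. Most points (74) lie to the right of 0 and below 0, with *rps27l* and *rps8b* above 0 on both axes and *rpl7l1* farthest to the left at -0.31.

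Genes that assemble ribosomes were called lower more often than the subunit genes in mutant fins, though the difference between the lists was not tested. Most subunit genes lie lower in the fin table, where 0 members had a wild-type mean of 1000 or more, against 77 in ventricles. Whether the scale of the fin table bears on the 2 lists alike was not tested. Of 99 tested ribosome biogenesis factors, a list that also holds *rpl7l1* and *rps19bp1*, 35 were lower and 2 higher past the threshold, with a median of -0.24, where 17.0% of all tested genes were lower and 19.6% higher. The lower ones included *nolc1*, a nucleolar protein that works with the snoRNPs (623, 698 and 644 in wild types, 355, 443 and 411 in mutants, -0.70, adjusted p = 0.00226, limma). They also included *utp20* of the small subunit processome (443, 545 and 421 against 284, 286 and 313, -0.66) and *mrto4*, which helps to build the stalk base (285, 253 and 241 against 168, 172 and 186, -0.56). None of these 3 genes overlapped between genotypes. The 2 higher ones were the RNA helicase gene *ddx21* (0.46) and *rsl24d1* (0.36), which acts on pre-60S particles. Fewer factors were called lower when any 1 library was left out, as was so of all genes. The count was 14 without wild-type replicate 2 (14.1% of the list, 9.93% of all tested genes), 16 without wild-type replicate 1 (16.2% and 11.9%), and 25 without wild-type replicate 3 (25.3% and 10.7%). It was 19 without mutant replicate 2 (19.2% and 14.98%), 22 without mutant replicate 3 (22.2% and 13.0%) and 23 without mutant replicate 1 (23.2% and 13.8%). Without both libraries of the highest worth it was 12, 12.1% of the list against 11.4% over the tested genes. The list's medians in these fits were -0.27 to -0.21.

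Of 74 mitochondrial ribosomal proteins, 13 were lower and 0 higher in mutant fins, with a median of -0.22. The share called lower, 17.6%, is near the 17.0% of all tested genes, while 45 were lower without overlap, where 26.8% of all tested genes were. The 3 largest falls were in *mrpl1* (168, 136 and 132 against 82, 98 and 101, -0.63), *mrpl10* (159, 160 and 147 against 97, 99 and 112, -0.59) and *mrpl48* (126, 107 and 101 against 75, 84 and 65, -0.57), all of the large mitochondrial subunit. Their adjusted p-values in limma were 0.0158, 0.00824 and 0.0285. Leaving out any 1 library left 3 to 7 of the 13, 4.05% to 9.46% of the list. In those fits 9.93% to 14.98% of all tested genes were called lower. The replicate block left 6 (8.11% of the list, 15.5% of all tested genes).

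Translation factors and other TOP mRNAs were mostly not called, with 3 of 44 higher and 2 lower and a median of 0.07, where 19.6% of all tested genes were higher and 17.0% lower. The 3 higher were *eef1a1a*, a lesser elongation factor gene (15, 10 and 10 in wild-type fins, 40, 40 and 45 in mutant fins, 1.77), *eef2l2* (88, 86 and 74 against 144, 149 and 158, 0.86) and *eef1db* (0.36). The lower ones were *pabpc4*, a poly(A)-binding protein gene (219, 176 and 194 against 75, 100 and 102, -1.09), and *eef2a.1* (375, 366 and 316 against 211, 237 and 212, -0.68).

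Genes that control translation and growth were called in both directions in mutant fins. Of 33 genes of mTORC1 and Myc growth control, 9 were higher and 4 lower, with a median of 0.07, where 19.6% of all tested genes were higher and 17.0% lower. The translational repressor genes *eif4ebp3* (27, 41 and 39 in wild types, 339, 170 and 190 in mutants, 2.63, adjusted p = 0.000797, limma) and *eif4ebp3l* (105, 99 and 97 against 682, 228 and 358, 1.92, adjusted p = 0.00448) were higher, as was the mTORC1 inhibitor gene *ddit4* (59, 46 and 50 against 464, 144 and 329, 2.42, adjusted p = 0.00286). Mutant replicate 1 was the highest library for all 3. The lower ones were *castor1*, an arginine sensor gene (-0.50), the S6 kinase gene *rps6kb1b* (-0.41), the *larp1* copy *larp1b* (-0.41) and *mtor* (-0.33). Of 15 p53 and nucleolar stress rows, which include the member *rps27l*, 8 were higher and 0 lower past the same threshold, with a median of 0.54. The gene *sesn1* is in both this list and the growth control list and is counted in each. *bbc3*, a death gene (22, 52 and 90 against 309, 211 and 178, 2.24), *gadd45aa* (48, 53 and 53 against 214, 219 and 223, 2.07) and *sesn1*, which also restrains mTORC1 (404, 388 and 434 against 1742, 1146 and 1300, 1.75), rose most, while *rps27l* itself was at 164, 138 and 158 against 176, 200 and 164 (0.23, adjusted p = 0.182). Leukocyte and lymphocyte markers were also higher in the same mutant fins, and their part in these calls was not tested.

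**Figure D5:**
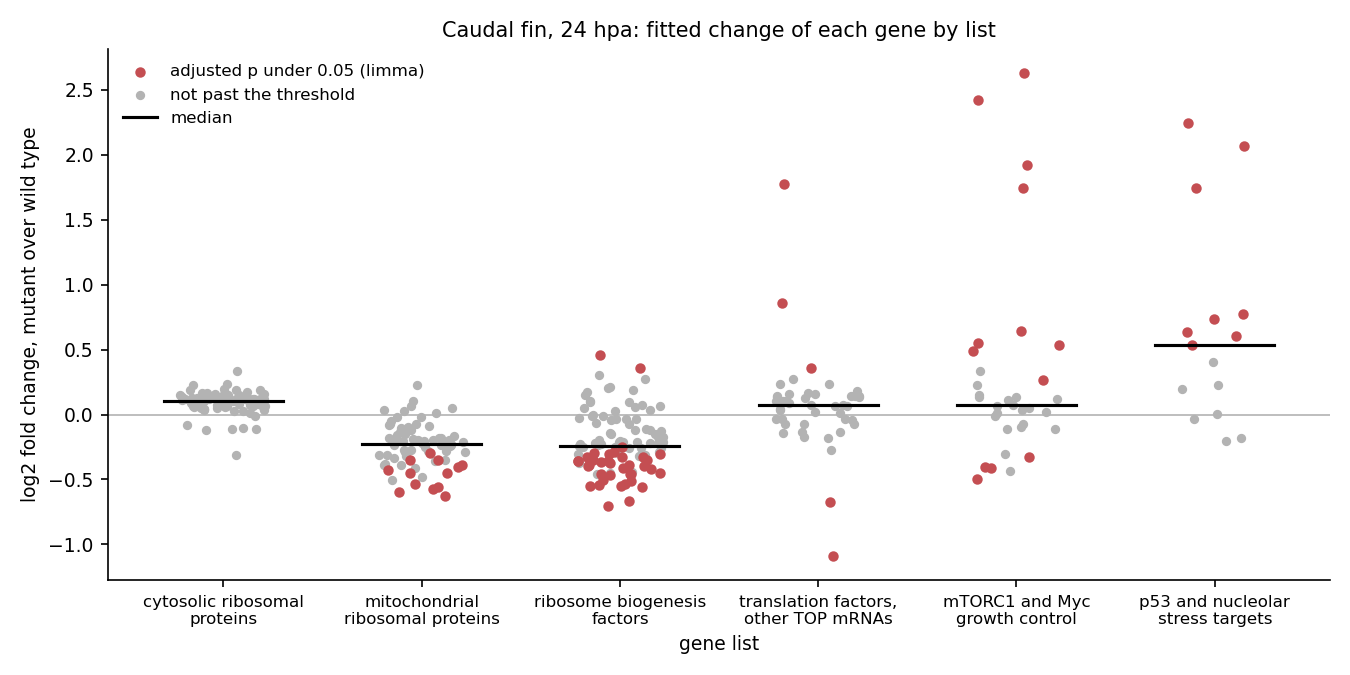
Fitted log2 fold change (mutant over wild type) in fins at 24 hpa of each tested gene in 6 lists; red points passed an adjusted p of 0.05 in limma, grey points did not, and black bars are medians. The 83 cytosolic ribosomal protein genes cluster about a median of 0.10 with none called. The biogenesis list of 99 tested genes lies lower (median -0.24, 35 lower and 2 higher). The p53 list of 15 tested rows lies higher (median 0.54, 8 higher and 0 lower). Over all tested genes, 17.0% were called lower and 19.6% higher. Without the 2 fin libraries of highest worth, 12.1% of the biogenesis list was called lower, against 11.4% of all tested genes. Whether the scale of the fin table bears on these lists alike was not tested.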

How the data were processed

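Stranded mRNA libraries were sequenced as single-end reads of 75 bases. The submitters' processing notes name FastQC, Trimmomatic 0.39, STAR 2.7.3a, featureCounts 1.6.5 of Subread, DESeq2 1.26 and the build GRCz11 (danRer11). Handling of duplicate reads is not given in the sources used here. The deposited values are read counts that the authors divided by a size factor per library and rounded, a score per gene set within each tissue. Every column of values belongs to a labelled library.

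Genes with a mean of at least 10 (all 83 members) were fitted as log2(value + 1) with limma 3.58.1 in R 4.3.3 (moderated with a trend), comparing genotypes within each tissue alone. Fold changes are on that scale, and p-values were adjusted by Benjamini-Hochberg over all tested genes at a threshold of 0.05. Nothing says which replicates share a clutch or day, so p-values measure the spread between these libraries. Exact permutation tests over libraries could not go below 0.1 in fins or 0.333 in ventricles and are not given. The worth of 1 read was estimated from the gaps that rounding leaves (Python 3.11.15). Both steps were tested on simulated data with known answers. The worth was recovered within 1% in 19 of 20 simulated tables. At a log2 change of 0.58, the fit called 48 of 67 changed genes in fins and 4 of 67 in ventricles. At a log2 change of 1 it called 51 of 67 and 35 of 67. A member not called in ventricles is therefore not shown to be unchanged.

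Named in ventricles were the 5 largest changes each way (2 were above 0). An item that this rule names is not reported here. Also named were the stalk genes, *rpsa*, gene copies, the 2 members of no subunit and, per list, the 3 largest rises and falls called in fins. In fins no member passed the rule. *rps2*, *rpl3*, *mtor* and *eef1a1l1* were chosen after their values were seen. Copies were paired by symbol, leaving out pairs of different proteins (such as *rpl10* and *rpl10a*) after the data were seen. Levels per kilobase, promoter motifs and protein identities were not analysed here. The members and lists were chosen with earlier results of these data known. Alternatives covered pseudocounts, filters, scalings, moderation, a replicate block, and leaving out each library.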

Additional observations from a re-analysis of the deposited data

Results flagged for a closer look

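The stalk gene *rplp2* was the 1 ribosomal protein gene for which every library of one tissue went one way and every library of the other tissue the opposite way. Its log2 fold change, mutant over wild type, was 0.20 in fins and -0.55 in ventricles, and it was called in neither (adjusted p = 0.188 and 0.694, limma). Of all tested genes, 26.0% were higher without overlap in mutant fins and 17.1% lower without overlap in mutant ventricles. The share of all genes that did both was not counted, so no result is drawn from this 1 member.

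Opposite directions without overlap were also seen in 7 of the genes named from the other lists. They were named for their called rises in fins, so their fin direction follows from the choice. In ventricles, 17.1% of all tested genes were lower without overlap. Of the other named rises, *eef1a1a*, *bbc3* and *gadd45aa* were higher without overlap in mutant ventricles too, and *ddx21* overlapped. No result is drawn from these 7 genes. For *rsl24d1* the log2 fold changes were 0.36 in fins and -0.65 in ventricles, for *eef1db* 0.36 and -0.55, and for *eef2l2* 0.86 and -0.73. For the growth restraint genes *sesn1*, *ddit4*, *eif4ebp3l* and *eif4ebp3* they were 1.75 and -0.96, 2.42 and -1.29, 1.92 and -0.95, and 2.63 and -0.80. In ventricles *ddit4* was at 1413 and 1009 in wild types and 542 and 437 in mutants, and *sesn1* at 2186 and 1913 against 758 and 1455. None of these was called in ventricles by limma, where 0.0% of genes were called. The tissues differ in time after injury and were scaled in separate tables, and the differences between them were not tested.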

How the results depend on the processing

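No ribosomal protein gene was called higher in either tissue, or lower in ventricles, under any alternative run. In fins 1 member, *rpl7l1*, was called lower with upper-quartile scaling and with library-sum scaling, and leaving out 1 library at a time gave 0 to 1. The median in ventricles without 1 library ran from -0.40 to -0.21 for the large subunit and -0.42 to -0.23 for the small subunit. The mean share of members in wild-type ventricles was 4.92% without mitochondrial genes and 5.24% without the 10 largest other genes, against 4.39%. Members lower without overlap in fins numbered 2 with upper-quartile or either library-sum scaling (29.0% to 31.1% of all tested genes). In estimated reads 3 were lower (22.2%) and 0 higher (13.4%). Leaving out 1 library gave 1 to 4 lower (30.0% to 31.2%) and 2 to 55 higher (28.8% to 30.5%). In ventricles either library-sum scaling gave 28 or 20 lower (13.2% or 12.8% of all tested genes) and 1 higher (20.9% or 20.7%). Leaving out 1 library gave 75 to 79 lower (28.4% to 37.1%) and 0 to 3 higher (30.6% to 39.3%).

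Ribosome biogenesis factors called lower in fins numbered 20 without a variance trend (20.2% of the list, 13.9% of all tested genes), against 35. They numbered 12 without the libraries of highest worth (12.1% and 11.4%) and 14 to 25 without 1 library (14.1% to 25.3%, and 9.93% to 14.98%). For mitochondrial ribosomal proteins the count was 20 with upper-quartile scaling (27.03% of the list, 20.2% of all tested genes), against 13 (17.6% and 17.0%). It was 6 with the replicate block (8.11% and 15.5%) and 8 with the worth of 1 read as a covariate (10.8% and 14.5%). It was 2 without the libraries of highest worth (2.7% and 11.4%) and 3 to 7 without 1 library (4.05% to 9.46%, and 9.93% to 14.98%). In the fin values of members, *rps26* turned to -0.0081 with upper-quartile scaling. With the worth as a covariate *rplp1* was at -0.042, *rpl5b* at -0.022, *rps8a* at -0.044, *rps26* at -0.072, *rps26l* at -0.010 and *rps27.2* at -0.015, and the *rpl37* row of chromosome 2 at 0.061 in ventricles. *rpl22l1* was at 0.027 without the libraries of highest worth. Without 1 library, fin values ran from -0.034 to 0.15 for *rplp1*, -0.0044 to 0.22 for *rpl5b*, -0.079 to 0.16 for *rpl37* of chromosome 2, -0.019 to 0.19 for *rps8a*, -0.049 to 0.13 for *rps26*, -0.0016 to 0.14 for *rps26l* and -0.0083 to 0.15 for *rps27.2*. Ventricle values ran from -0.067 to 0.63 for *rps8b*, -0.29 to 0.046 for *rpl37* of chromosome 2, -0.40 to 0.12 for *rpl7l1* and -0.23 to 0.065 for *rps19bp1*. None of these was called, and the cause was not tested. The covariate, leaving out the libraries of highest worth, scaling to the sum over all genes, estimated reads and the crossed pairing were chosen after seeing the data.

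The labels give same-numbered libraries nothing in common but the number. Correlations of their deviations were 0.033, 0.090 and -0.084 in fins and -0.19 in ventricles. These values cannot show whether such libraries share a clutch or day. In ventricles the deviations of the 2 libraries of a genotype mirror each other, so the crossed pairing gives 0.19. With the replicate block 0 members were called in either tissue, 5703 genes in fins against 6132, and 0 in ventricles, and the crossed pairing also called 0 members and 0 genes in ventricles. The lower depth of the fin libraries limits members near 40 normalized counts such as *rps8b*.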
